A study of Mus musculus with 24 samples.

Results

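Hepatic gluconeogenesis makes glucose from lactate, amino acids and glycerol and lets the liver feed the rest of the body between meals. Pyruvate carboxylase and phosphoenolpyruvate carboxykinase carry pyruvate back to phosphoenolpyruvate, fructose-1,6-bisphosphatase reverses the phosphofructokinase step, and the glucose-6-phosphatase system in the endoplasmic reticulum releases free glucose. Glucagon raises the transcription of this route through cAMP, CREB and the CRTC2 coactivator. Insulin lowers it through PI3K and AKT, which keep FOXO1 out of the nucleus.

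The 10 genes described here are G6pc, G6pc3, Slc37a4, Pck1, Pck2, Fbp1, Pcx, Gcgr, Crtc2 and Aqp9, taken by gene name from the 37074 gene names of a mouse liver array. They have 15 probes, and each gene was read by 1 of them, the probe with the highest mean log2 signal over all 24 arrays. All 10 were well above background on all 24 arrays and were tested among 21365 genes. The 4 groups of 6 livers were p110aLWT Fed, p110aLWT Fasted, p110aLKO Fed and p110aLKO Fasted. In p110aLKO mice an albumin-driven Cre removes exons 18 and 19 of floxed Pik3ca, the gene of the PI3K catalytic subunit p110α, in hepatocytes. The p110aLWT mice are floxed littermates without Cre, so the controls carry no Cre. Whether the other cells of a p110aLKO liver keep the gene was not examined. All mice were males of 12 weeks on a C57BL/6J background, killed at ZT16 (16 h after lights on), either with free access to food or after a 24 h fast. The comparisons ask how these genes respond to fasting and whether that response differs when hepatocytes lack p110α.

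Levels are quantile-normalized log2 signals, with n = 6 arrays in each group and 1 mouse an array. Fold changes come from a single limma fit over all 24 arrays with array weights and a slide term, so they need not equal the differences of the group means. Calls required a change beyond 1.5-fold and a p-value that stayed at or under 0.05 once adjusted by Benjamini-Hochberg across the 32197 probes kept. On the arrays 54.7% to 63.0% of spots were well above background and no spot was saturated. Arrays p110aLKO Fasted 1 and 2 stood apart on the second principal component, at 35.06 and 31.25 against 1.40 to 2.92 for the other 4 of their group. Leaving both out kept the number of genes called at 3 for fasting in p110aLKO and at 1 for the genotypes after fasting, while the fasted genotype differences of Fbp1 and Pcx no longer passed the adjusted p (0.165 and 0.136).

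The Pik3ca probe (chr3:32364747-32364806, mm9) did not show a loss of signal in the arrays labelled p110aLKO. It read 11.91 ± 0.21 (SD, n = 6) in p110aLWT Fed, 12.28 ± 0.14 in p110aLWT Fasted, 12.54 ± 0.26 in p110aLKO Fed and 12.26 ± 0.19 in p110aLKO Fasted. In fed livers all 6 p110aLKO arrays lay above all 6 p110aLWT arrays, with a log2 fold change of 0.58 (SE 0.11, limma adjusted p = 0.00146). In fasted livers the difference was -0.02 (SE 0.12, adjusted p = 0.93). Whether the probe lies in the deleted exons was not examined, so the genotypes are those the labels give.

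The upstream sequences of 9 of the 10 genes were in the RefSeq promoter table (build GRCm38.p6), in 13 windows running from 250 bases before to 50 bases after the gene start. The 250 bases before the start are shown for the paired enzymes, since G6pc and Pck1 moved with fasting and their relatives G6pc3 and Pck2 did not pass the test. Capitals mark matches to the motifs searched.
G6pc: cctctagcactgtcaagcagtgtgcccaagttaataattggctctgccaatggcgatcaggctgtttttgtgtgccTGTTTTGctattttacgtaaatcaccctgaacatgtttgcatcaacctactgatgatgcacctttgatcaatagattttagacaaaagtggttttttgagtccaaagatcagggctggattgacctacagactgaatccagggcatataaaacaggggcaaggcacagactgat
G6pc3: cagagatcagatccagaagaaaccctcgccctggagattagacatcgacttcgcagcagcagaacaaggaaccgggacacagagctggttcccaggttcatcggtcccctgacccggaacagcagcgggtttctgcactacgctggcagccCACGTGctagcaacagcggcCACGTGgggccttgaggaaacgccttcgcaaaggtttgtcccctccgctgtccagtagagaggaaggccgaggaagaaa
Pck1: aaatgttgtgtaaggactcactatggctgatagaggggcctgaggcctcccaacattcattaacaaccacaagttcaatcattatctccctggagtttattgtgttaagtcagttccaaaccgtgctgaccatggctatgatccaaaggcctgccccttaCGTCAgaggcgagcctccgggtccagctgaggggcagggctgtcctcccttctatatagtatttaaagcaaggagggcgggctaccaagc
Pck2: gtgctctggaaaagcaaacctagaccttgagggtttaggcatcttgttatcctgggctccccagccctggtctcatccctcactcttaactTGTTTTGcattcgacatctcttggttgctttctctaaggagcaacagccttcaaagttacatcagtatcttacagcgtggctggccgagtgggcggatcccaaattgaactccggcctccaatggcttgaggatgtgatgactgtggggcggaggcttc

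These stretches lie at chr11:101367466-101367715, chr11:102189449-102189698, chr2:173152823-173153072 and chr14:55540016-55540265, all on the plus strand. The insulin response core (TGTTTTG or CAAAACA) matched once in G6pc, at -174 from the start, and once in Pck2, at -159, and 6.28% of all 32851 windows of the table hold it. The cAMP core sequence (CGTCA or TGACG) matched once in Pck1, at -90, and in 2 of the 3 windows of Slc37a4, which overlap, so that the match at -61 of the one is the same site as that at -214 of the other (the latter has another at -82), and 20.81% of all windows hold it. The E-box (CACGTG) matched at -99 and -79 in G6pc3 and at -248 in Pcx, and 7.15% of all windows hold it. The full cAMP response element (TGACGTCA, 1.79% of all windows) and the FOXO element (GTAAACA or TGTTTAC, 3.65%) matched in no window of these genes. Both strands were searched, and a match is a description of letters only.

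Fasting in p110aLWT livers raised Pck1, Crtc2 and G6pc, while the other 7 genes were not called. The 3 called genes of 10 stand beside 10% of all genes tested, and 6 of 10 passed the adjusted p without a minimum fold, beside 41.6% of all genes. The median log2 fold change of the 10 genes was 0.24, against -0.01 over all genes tested. In p110aLKO livers 3 of 10 were called, G6pc and Pck1 higher and Slc37a4 lower, beside 12.8% of all genes. There 5 passed the adjusted p alone, beside 41.5%, and the median of the 10 was 0.10 against -0.02. The groups of arrays did not overlap for 3 genes in each genotype, beside 21.6% of all genes in p110aLWT and 22.1% in p110aLKO.

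Between the genotypes 1 gene of 10 was called in fed livers, Pck1 (3.84% of all genes), and 3 passed the adjusted p alone (16.4%). After fasting 1 was called, Slc37a4 (4.06%), and 3 passed the adjusted p alone (20.6%). The arrays of the genotypes did not overlap for 1 gene in fed livers (8.62% of all genes) and for 2 in fasted livers (8.71%). For the difference between the fasting responses, the interaction of fasting and genotype, no gene was called (3.10%). By the adjusted p alone 1 gene passed (7.99%). The comparisons share arrays: p110aLWT Fed serves both fasting in p110aLWT and the fed genotypes, so their values for 1 gene are not independent.

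**Figure D1:**
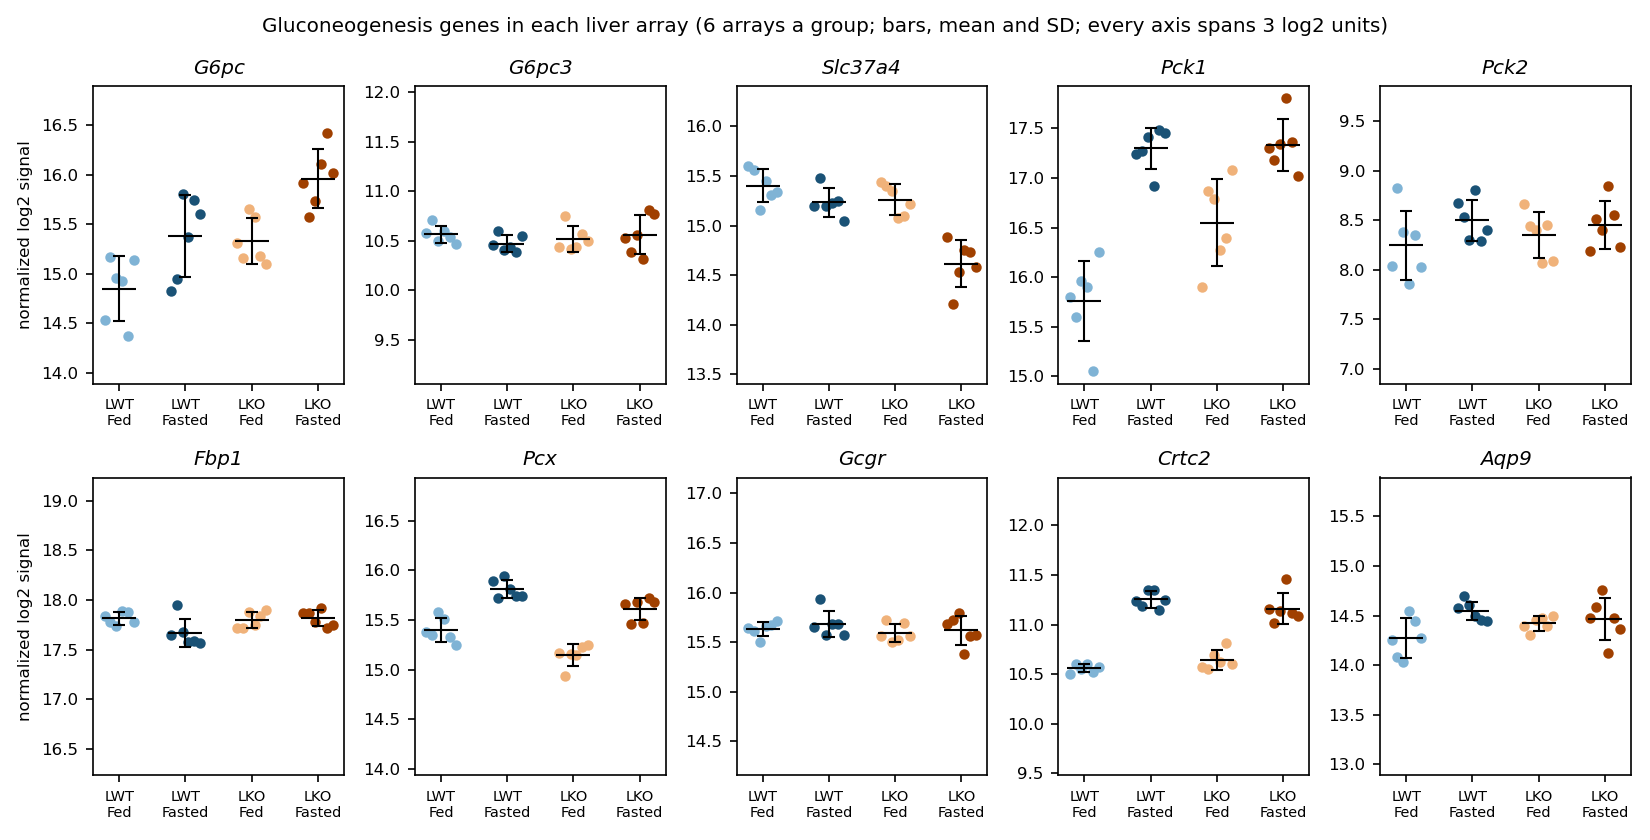
Normalized log2 signal of each of the 10 genes in every array, by group (LWT, p110aLWT; LKO, p110aLKO), with the mean and SD of 6 arrays and axes of equal span. Pck1 and G6pc are lowest in p110aLWT Fed, Slc37a4 is lowest in p110aLKO Fasted, where its 6 arrays lie at or below 14.89, and Gcgr and G6pc3 stay near 1 level.

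G6pc encodes the catalytic subunit of glucose-6-phosphatase, the last enzyme of the route (probe NM_008061, chr11:101238947-101239006, mm9). Its signal ran from 14.37 through a median of 14.94 to 15.17 in p110aLWT Fed and from 14.83 through 15.49 to 15.81 in p110aLWT Fasted. It ran from 15.10 through 15.24 to 15.65 in p110aLKO Fed and from 15.57 through 15.97 to 16.42 in p110aLKO Fasted. The highest group was p110aLKO Fasted and the lowest p110aLWT Fed, and neighbouring groups overlapped, with 4 of 6 fasted p110aLWT arrays above every fed one.

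Fasting raised G6pc in p110aLWT livers by 0.68 on the log2 scale (1.60-fold, SE 0.16, limma adjusted p = 0.00192) and in p110aLKO livers by 0.60 (1.51-fold, SE 0.18, adjusted p = 0.0111). The responses differed by -0.08 (95% interval -0.59 to 0.42, adjusted p = 0.878). G6pc was higher in p110aLKO than in p110aLWT fed livers by 0.57 (SE 0.17, adjusted p = 0.025), a 1.48-fold change just under the minimum fold. In fasted livers the difference of 0.48 (95% interval 0.11 to 0.85) did not pass, with an adjusted p of 0.0601. The size of the fasting response rests near the minimum fold. It was 0.53 (adjusted p = 0.0131) in p110aLWT without array weights, and leaving out p110aLWT Fasted 3 or 6 or p110aLWT Fed 1 or 5 gave 0.51 to 0.58, each under the fold. In p110aLKO leaving out p110aLKO Fasted 4 or 5 or p110aLKO Fed 5 gave 0.46 to 0.57, also under it, as did normexp background correction (0.58), keeping only probes above background on all 24 arrays (0.58), fitting only the groups compared (0.56) and the replicate block (0.58). The fed genotype difference did not pass the adjusted p without array weights or without the background filter. The fed genotype difference was called without p110aLWT Fed 2, 3 or 6 or p110aLKO Fed 5, at 0.59 to 0.65, and its adjusted p rose to between 0.0548 and 0.114 without p110aLWT Fed 1, 4 or 5 or p110aLKO Fed 3. The fasted difference was called without p110aLWT Fasted 3 or 6, at 0.62 and 0.65, and passed the adjusted p also without p110aLKO Fasted 2 or p110aLWT Fed 2, without array weights (0.58, adjusted p = 0.0163) and with the replicate block (0.51, adjusted p = 0.035).

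G6pc3, the ubiquitous relative of G6pc, had values between 10.32 and 10.81 in all 24 arrays. None of its comparisons passed the adjusted p. Its log2 fold change was -0.11 for fasting in p110aLWT (95% interval -0.26 to 0.04) and 0.10 in p110aLKO (-0.07 to 0.26). The genotypes differed by -0.07 in fed livers (-0.22 to 0.08) and by 0.14 in fasted livers (-0.02 to 0.30). A second G6pc3 probe did not pass in any comparison either.

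Slc37a4 encodes the transporter that carries glucose-6-phosphate into the endoplasmic reticulum, where glucose-6-phosphatase acts (probe NM_001293630, chr9:44210978-44211037, mm9). Its signal ran from 15.16 through 15.39 to 15.61 in p110aLWT Fed, from 15.05 through 15.22 to 15.49 in p110aLWT Fasted and from 15.07 through 15.28 to 15.44 in p110aLKO Fed. In p110aLKO Fasted it ran from 14.21 through 14.66 to 14.89. Those 6 arrays lay below every other array of the series, and the other 3 groups overlapped each other.

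Fasting lowered Slc37a4 in p110aLKO livers by a log2 fold change of -0.68 (1.60-fold, SE 0.10, adjusted p = 7.91e-06), the opposite direction from G6pc in the same livers. In p110aLWT livers the fasting change was -0.24 (SE 0.09, adjusted p = 0.036). The test of the difference between these responses gave -0.44 (SE 0.13, adjusted p = 0.0437), the 1 interaction among the 10 genes that passed. After fasting Slc37a4 was lower in p110aLKO than in p110aLWT by -0.60 (1.52-fold, SE 0.10, adjusted p = 0.000146), and in fed livers the difference was -0.16 (95% interval -0.35 to 0.02, adjusted p = 0.239).

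Leaving out p110aLWT Fasted 2, p110aLKO Fasted 2 or p110aLKO Fasted 3 took the fasted genotype difference of Slc37a4 to between -0.58 and -0.55, under the minimum fold, with adjusted p-values at or below 0.000776. The interaction stands close to the threshold: with each of the 24 arrays left out in turn it lay between -0.49 and -0.39 and passed 7 times, with adjusted p-values from 0.0227 to 0.106, the highest without p110aLWT Fed 5. It did not pass without array weights or without the background filter. The fasting change in p110aLWT passed 18 of 24 times, and not without p110aLWT Fed 1, 2, 4 or 5 or p110aLWT Fasted 3 or 6 (adjusted p up to 0.126), nor with the processed signal, without the background filter or without array weights (-0.22 to -0.17). A second, dimmer probe, AK040077 at chr9:44205736-44205795, read 6.05 to 6.84 and passed in none of the comparisons; its fasting changes were 0.05 in p110aLWT and -0.01 in p110aLKO. Periportal hepatocyte markers moved in the same comparison. Cyp2f2, Hal, Cdh1 and Hsd17b6 were called lower and Hsd17b13 higher with fasting in p110aLKO, among 7 such genes and beside 12.8% of all genes, and their summed level was 17.31 to 17.76 in p110aLKO Fed and 16.85 to 17.67 in p110aLKO Fasted. In p110aLWT, Cdh1 (-1.47) and Hsd17b13 (0.64) were called with fasting in the same directions. There Cyp2f2 also passed the adjusted p as lower, under 1.5-fold (-0.50), while Hal (0.26) and Hsd17b6 (0.41) did not pass. The summed level in p110aLWT was 17.70 to 18.02 in fed and 17.32 to 17.86 in fasted livers. Hal was also called lower in p110aLKO after fasting (-0.87) and in the interaction (-1.15), as was the pericentral marker Cyp1a2 (-0.79 and -1.07), and Cyp2f2 passed the adjusted p in the former (-0.58, adjusted p = 0.0166). None of Cdh1 (0.34), Hsd17b6 (0.02), Hsd17b13 (-0.09), Ctsc (-0.01) and Gls2 (-0.24) passed between the genotypes after fasting. Hsd17b6 was called higher in fed p110aLKO livers (1.09, limma adjusted p = 0.00233). The part of these markers in the Slc37a4 result was not tested. In these whole livers fewer cells of a type and less RNA per cell cannot be told apart.

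Pck1 encodes the cytosolic phosphoenolpyruvate carboxykinase, a rate-setting enzyme of the route (probe NM_011044, chr2:172984307-172984366, mm9). Its signal ran from 15.05 through 15.85 to 16.25 in p110aLWT Fed and from 15.90 through 16.59 to 17.08 in p110aLKO Fed. After fasting it ran from 16.92 through 17.34 to 17.49 in p110aLWT and from 17.02 through 17.32 to 17.81 in p110aLKO. All 6 fasted p110aLWT arrays lay above all 6 fed ones, 5 of 6 fed p110aLKO arrays lay above every fed p110aLWT array, and the fasted groups overlapped.

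Fasting raised Pck1 by 1.59 on the log2 scale in p110aLWT (3.01-fold, SE 0.20, adjusted p = 1.5e-06) and by 0.79 in p110aLKO (1.73-fold, SE 0.22, adjusted p = 0.00635). In fed livers it was higher in p110aLKO by 0.81 (1.75-fold, SE 0.21, adjusted p = 0.00991), and in fasted livers the genotypes differed by 0.004 (95% interval -0.45 to 0.46, adjusted p = 0.992). The 2 fasting responses differed by -0.80 (95% interval -1.42 to -0.18), with an unadjusted p of 0.0136 that did not pass after adjustment (0.105). Without p110aLKO Fed 1 this difference was -0.99 and passed (adjusted p = 0.0405). Without p110aLWT Fed 5, the array with the lowest Pck1, the fed genotype difference fell to 0.55 (adjusted p = 0.0488), under the minimum fold. Within the 3 slides it was 1.47, 0.45 and 0.45, each from 2 arrays a group and none past the adjusted p.

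Pck2, the mitochondrial phosphoenolpyruvate carboxykinase, was read between 7.86 and 8.85 over the 24 arrays. Its log2 fold change with fasting was 0.29 in p110aLWT (95% interval 0.00 to 0.58, adjusted p = 0.103) and 0.03 in p110aLKO (-0.29 to 0.35, adjusted p = 0.889). The genotypes differed by 0.16 in fed livers (-0.13 to 0.46) and by -0.09 in fasted livers (-0.41 to 0.22), neither past the test. The fasting change in p110aLWT passed without p110aLWT Fed 2 or p110aLWT Fasted 3, with adjusted p-values of 0.0136 and 0.0441, and with the replicate block (0.37, adjusted p = 0.0245). The other Pck2 probe was not kept by the background filter.

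Pcx encodes pyruvate carboxylase, the mitochondrial enzyme that makes oxaloacetate from pyruvate (probe NM_001162946, chr19:4621610-4621669, mm9). Its signal ran from 15.25 through 15.37 to 15.58 in p110aLWT Fed and from 15.72 through 15.78 to 15.94 in p110aLWT Fasted. It ran from 14.93 through 15.17 to 15.24 in p110aLKO Fed and from 15.46 through 15.67 to 15.72 in p110aLKO Fasted. The groups did not overlap in any of the 4 comparisons, with fasted above fed in each genotype and p110aLWT above p110aLKO in each state.

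Fasting raised Pcx by 0.44 in p110aLWT (1.36-fold, SE 0.06, adjusted p = 2.5e-06) and by 0.48 in p110aLKO (1.39-fold, SE 0.06, adjusted p = 2.6e-06). Pcx was lower in p110aLKO by -0.23 in fed livers (SE 0.06, adjusted p = 0.0117) and by -0.19 in fasted livers (SE 0.06, adjusted p = 0.0403). The responses differed by 0.04 (95% interval -0.14 to 0.22). Every one of these changes was under 1.5-fold, and none counts among the calls. With each of the 24 arrays left out in turn the fasted genotype difference passed 15 times, with values from -0.20 to -0.16 and an adjusted p of up to 0.0965, the highest without p110aLKO Fasted 2. It did not pass with the processed signal, without the background filter or with the replicate block (adjusted p = 0.0532 to 0.0634). The other 3 comparisons passed all 24 times, and the fed genotype difference did not when only the groups compared were fitted (adjusted p = 0.0656).

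Fbp1, fructose-1,6-bisphosphatase, moved within a narrow range of 17.56 to 17.95 (probe NM_019395, chr13:62966175-62966234, mm9). It ran from 17.74 through 17.81 to 17.89 in p110aLWT Fed and from 17.56 through 17.62 to 17.95 in p110aLWT Fasted. In p110aLKO its median was 17.80 in fed and 17.82 in fasted livers. Of the fasted p110aLWT arrays, 5 lay below every fed one and 1 above. Fasting lowered it in p110aLWT by -0.21 (1.16-fold, SE 0.05, adjusted p = 0.00345), and the change in p110aLKO was 0.003 (95% interval -0.12 to 0.13). The p110aLWT change was -0.13 with the processed signal scaled to the 75th percentile and -0.15 without array weights, neither past the adjusted p (0.07 and 0.062), and from -0.25 to -0.06 within single slides, none past it. After fasting it was higher in p110aLKO by 0.18 (SE 0.06, adjusted p = 0.0401), which passed 16 of 24 times with single arrays left out (adjusted p up to 0.127, without p110aLWT Fasted 6). It did not pass with the processed signal (0.092), without the background filter (0.17), without array weights (0.15), with the replicate block (0.16, adjusted p = 0.0675) or with only the groups compared (0.17). The responses differed by 0.21 (SE 0.08), which did not pass after adjustment (0.113), and by 0.073 with the processed signal.

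**Figure D2:**
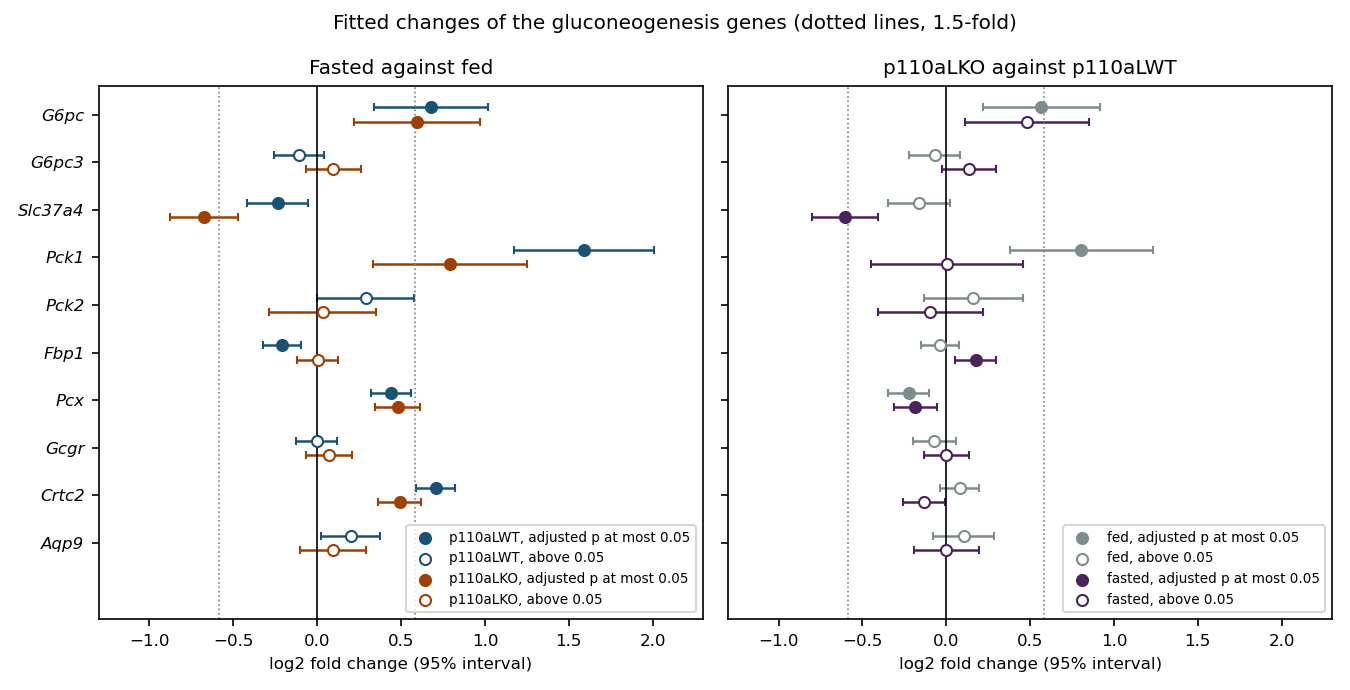
Fitted log2 fold changes with 95% intervals for the 10 genes: fasted against fed in each genotype (left) and p110aLKO against p110aLWT in each state (right); filled points have an adjusted p of at most 0.05 and dotted lines mark 1.5-fold. Pck1 has the largest fasting change in p110aLWT, 1.59, and Slc37a4 is the 1 gene past 1.5-fold on the lower side, at -0.68 with fasting in p110aLKO and -0.60 between the genotypes after fasting.

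Crtc2 encodes the coactivator of CREB that answers glucagon (probe NM_028881, chr3:90067812-90067871, mm9). Its signal ran from 10.51 through 10.57 to 10.60 in p110aLWT Fed and from 11.15 through 11.25 to 11.35 in p110aLWT Fasted. It ran from 10.55 through 10.61 to 10.81 in p110aLKO Fed and from 11.02 through 11.12 to 11.46 in p110aLKO Fasted. Fasted arrays lay above fed ones without overlap in both genotypes.

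Fasting raised Crtc2 by 0.71 in p110aLWT (1.63-fold, SE 0.06, adjusted p = 1.71e-09) and by 0.49 in p110aLKO (1.41-fold, SE 0.06, adjusted p = 1.05e-06). The difference of the responses was -0.21 (SE 0.08), with an unadjusted p of 0.016 and an adjusted p of 0.115, which was 0.04 without p110aLKO Fasted 4, the array with the highest Crtc2. The genotypes differed by 0.08 in fed livers (95% interval -0.04 to 0.20) and by -0.13 in fasted livers (-0.26 to -0.01, adjusted p = 0.123, and 0.0328 without the same array). A second, dimmer Crtc2 probe rose by 0.41 with fasting in p110aLWT (adjusted p = 0.000159), under the minimum fold, and read 0.21 in p110aLKO (adjusted p = 0.0554).

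Gcgr, the glucagon receptor, stayed between 15.38 and 15.94 in all arrays. Its fasting change was -0.003 in p110aLWT (95% interval -0.13 to 0.12) and 0.07 in p110aLKO (-0.07 to 0.21). The genotypes differed by -0.07 in fed livers (-0.20 to 0.06) and by 0.001 in fasted livers (-0.13 to 0.14). None of these passed the test.

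Aqp9, the channel by which hepatocytes take up glycerol, ran from 14.03 to 14.76. With fasting it changed by 0.20 in p110aLWT (95% interval 0.02 to 0.38, adjusted p = 0.0686) and by 0.10 in p110aLKO (-0.10 to 0.29). The genotypes differed by 0.11 in fed livers (-0.08 to 0.29) and by 0.001 in fasted livers (-0.19 to 0.19). The fasting change in p110aLWT passed without p110aLWT Fed 4 or 5 or p110aLKO Fasted 3 (adjusted p = 0.0146, 0.0425 and 0.0481), and without the slide term or the array weights (0.0257 and 0.0229). The probes of Aqp9 disagreed. A second, dimmer probe for XM_011242783 fell with fasting in p110aLKO (log2 fold change -0.33, adjusted p = 0.00618) and was higher in fed p110aLKO than in fed p110aLWT livers (0.25, adjusted p = 0.0484).

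The 10 genes also differed in how far arrays of 1 group spread. The pooled SD within groups was 0.34 for Pck1 and 0.32 for G6pc, against 0.26 for Pck2, 0.18 for Slc37a4 and 0.10 to 0.16 for the other 6. Across the 24 arrays, group differences included, the Pearson correlation of G6pc with Pck1 was 0.70 and with Slc37a4 -0.64, and that of Pck1 with Crtc2 was 0.83. Ranked from the highest r over 21335 genes, Pck1 was number 437 for G6pc and Crtc2 number 93 for Pck1. The other members ran from -0.33 to 0.60 with G6pc and from -0.535 to 0.51 with Pck1. The points share slides, groups and normalization, and these values are descriptions over 24 arrays.

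**Figure D3:**
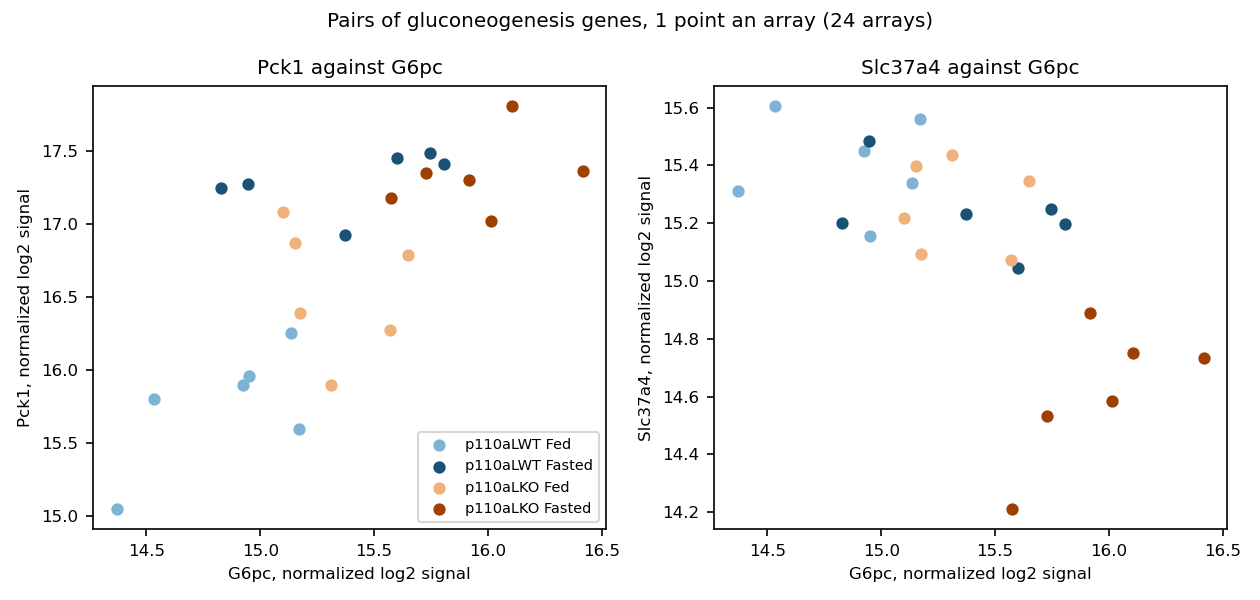
Normalized log2 signal of Pck1 (left) and Slc37a4 (right) against G6pc, 1 point for each of the 24 arrays, coloured by group. Pck1 is higher where G6pc is higher (r = 0.70). The 6 p110aLKO Fasted arrays sit apart at low Slc37a4. Their G6pc, 15.57 to 16.42, overlaps that of p110aLWT Fasted, 14.83 to 15.81, and of p110aLKO Fed, 15.10 to 15.65. Slc37a4 against G6pc gave r = -0.64 over all arrays.

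Among 21335 genes, the patterns most like that of G6pc over the 24 arrays were those of Slc25a25, a mitochondrial carrier of ATP-magnesium and phosphate (r = 0.94), Sik1, a kinase that phosphorylates CRTC2 (r = 0.90), and Igfbp1, an insulin-repressed secreted binding protein (r = 0.87). Igfbp1 read 13.75 ± 0.55 (SD, n = 6) in p110aLWT Fed, 15.52 ± 0.60 in p110aLWT Fasted, 15.44 ± 0.60 in p110aLKO Fed and 17.39 ± 0.70 in p110aLKO Fasted. Those most like Pck1 were Slc25a51, a mitochondrial NAD carrier (r = 0.91), Zfp292, a zinc finger gene (r = 0.90), and a transcript on chromosome 16 with no gene symbol (r = 0.89). Slc25a51 read 12.74 ± 0.20 in p110aLWT Fed and 14.35 ± 0.21 in p110aLWT Fasted, and 12.98 ± 0.23 and 14.03 ± 0.33 in the p110aLKO groups.

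A further 57 genes of the pathway are described and all were tested. With fasting 11 were called higher and 5 lower in p110aLWT (beside 10% of all genes in either direction), and 12 higher and 5 lower in p110aLKO (12.8%). Between genotypes 4 were called higher and 3 lower in fed p110aLKO livers (3.84%), and 5 higher and 4 lower in fasted ones (4.06%). For the interaction 9 were called (3.10%). Without array weights 16 and 17 were called with fasting in p110aLWT and p110aLKO (9.92% and 12.7% of all genes in that fit), 4 and 10 between genotypes in fed and fasted livers (3.85% and 3.94%) and 5 for the interaction (2.62%). Their median log2 fold changes were 0.14, 0.03, -0.04 and -0.08 in these 4 comparisons, against -0.01, -0.02, -0.01 and -0.004 over all genes.

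Of the reversible enzymes that glycolysis and gluconeogenesis share, 6 (Gpi1, Tpi1, Pgk1, Gapdh, Pgam1 and Eno1) shifted by small amounts. With fasting in p110aLWT all 6 passed the adjusted p as lower, beside 41.6% of all genes passing in either direction, with a median of -0.31, and 1 of them, Gpi1 at -0.65, was called. In p110aLKO 2 of 6 passed as lower with fasting, beside 41.5%, and the median was -0.01. The interaction, which also uses the fed p110aLWT arrays, passed the adjusted p for 3 of 6, all positive, beside 7.99% of all genes. Its median was 0.30 and none was called. In fed livers all 6 passed as lower in p110aLKO, beside 16.4%, with a median of -0.24 and none past 1.5-fold, and in fasted livers 1 of 6 did, beside 20.6%. The fed p110aLWT arrays stand in both of the comparisons in which all 6 passed.

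The 13 genes that bring lactate, amino acids, glycerol and malate into the route gave 3 calls with fasting in p110aLWT and 6 in p110aLKO, all higher, beside 10% and 12.8% of all genes in either direction. Got1, cytosolic aspartate aminotransferase, rose by 2.02 in p110aLWT, and Gyk, glycerol kinase, rose by 2.20 in p110aLKO. Mean Got1 also went from 14.43 to 16.13 with fasting in p110aLKO, and mean Gyk from 11.49 to 12.83 in p110aLWT. The difference between the Gyk responses was 0.97, which passed, though 1 of its 2 other probes did not. Gpd1 and Gpd2, the glycerol-3-phosphate dehydrogenases, were lower in fed p110aLKO livers by -0.59 and -0.77. The Gpd2 response differed by 0.96 (limma adjusted p = 0.024). Second probes of both genes passed the adjusted p but stayed under 1.5-fold. They read -0.39 and -0.48 in fed livers and 0.57 for the Gpd2 response. For Sds, serine dehydratase, the responses differed by -1.07 (limma adjusted p = 0.0355), a test that its second probe did not pass.

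Of the 6 genes of glycolysis and pyruvate use described, 2 were called lower with fasting in each genotype and 1, Pdk4, higher, beside 10% of all genes in p110aLWT and 12.8% in p110aLKO. Pklr, liver pyruvate kinase, changed by -2.33 in p110aLWT and -2.50 in p110aLKO. Pdk4, the kinase that shuts off pyruvate dehydrogenase, rose by 2.63 and 4.33. Pklr was lower in p110aLKO by -1.04 in fed and -1.21 in fasted livers. After fasting Pdk4 was higher in p110aLKO by 1.18, and its interaction of 1.70 passed.

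Among the 24 control genes 5 were called higher and 1 lower with fasting in p110aLWT, and 4 higher and 2 lower in p110aLKO, beside 10% and 12.8% of all genes. Irs2, the insulin receptor substrate, rose by 2.60 and 1.92, and Nr0b2, a nuclear corepressor, changed by -1.32 and -1.54. In fed livers 3 were called (3.84% of all genes), with p110aLKO higher for Irs2 (1.60), Sik1 (0.90) and the cAMP phosphodiesterase Pde4b (0.74). In fasted livers 4 were called (4.06%). Sik1 (0.999) and Irs2 (0.92) were higher in p110aLKO, and Klf15, a factor of amino acid catabolism (-0.66), and Foxo1 (-0.63) were lower. The interactions of Klf15 and Foxo1 were -0.81 (limma adjusted p = 0.0382) and -0.67 (adjusted p = 0.0166). Of the 8 carriers, 3 were called with fasting in p110aLWT and 2 in p110aLKO, none between genotypes in fed livers and 2 after fasting, beside the same 4 shares of all genes. Slc2a2, the hepatocyte glucose transporter, changed with fasting by -1.04 in p110aLWT and -1.41 in p110aLKO.

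**Figure D4:**
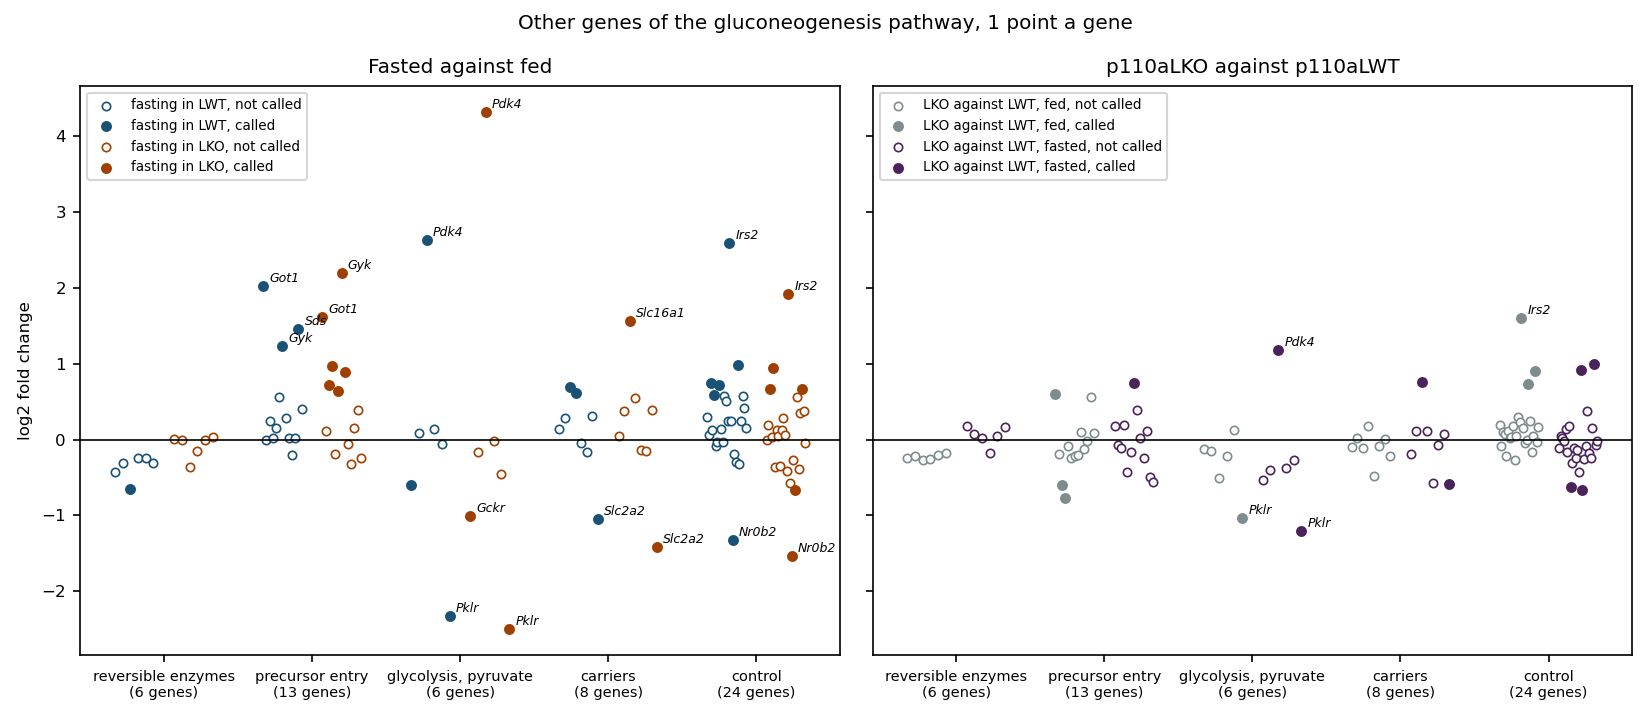
Log2 fold changes of the 57 other pathway genes, 1 point a gene, by list, for fasting in each genotype (left) and for p110aLKO against p110aLWT in each state (right); filled points were called, and called genes past 1 log2 unit carry their name. Pdk4, at 4.33 for fasting in p110aLKO, lies highest, and Pklr, at -2.50 in the same comparison, lowest.

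The tissue label was checked against marker lists. The 7 hepatocyte markers were all tested, none was called in any comparison, and their summed log2 level, set mostly by the most abundant of them such as albumin, was 20.64 to 20.77 in all 24 arrays. Under 1.5-fold, Hnf4a rose with fasting in both genotypes (0.57 in p110aLWT, 0.28 in p110aLKO) and was lower in p110aLKO after fasting (-0.24). Ttr fell with fasting in both genotypes (-0.18 and -0.37) and was lower in p110aLKO in both states (-0.21 fed, -0.41 fasted), and Apoa1 was higher in fed p110aLKO livers (0.28). No Kupffer cell marker of 7 and neither tested kidney marker of 4 was called. The 5 cholangiocyte markers summed to 11.03 to 11.74 in p110aLWT Fed and 9.61 to 10.84 in p110aLKO Fed, and to 10.75 to 11.10 and 8.99 to 10.20 after fasting. Of these Spp1 was the 1 marker called between genotypes, at -1.50 in fed and -2.10 in fasted livers, while Epcam (-0.41 and -0.42) passed the adjusted p in both states and Krt19 in fed livers (-0.57; -0.48 after fasting), all lower and under 1.5-fold. Krt7 (-0.20 and -0.15) and Sox9 (-0.17 and -0.15) did not pass. With fasting 1 cholangiocyte marker was called in p110aLWT and 2 in p110aLKO, all lower, beside 10% and 12.8% of all genes. Krt19 was among them in both genotypes (-0.67 and -0.59). Sox9 passed the adjusted p as higher in p110aLWT, under 1.5-fold (0.55). The remaining lists (pericentral hepatocytes, endothelium, stellate cells, pancreas and adipose tissue) had 0 to 3 called genes of 3 to 7 tested in a comparison. Between genotypes these included pancreatic Cela2a, higher in p110aLKO in both states (0.83 and 0.63) while Ctrb1 of the same list passed as lower under 1.5-fold (-0.36 and -0.31), and endothelial Lyve1, lower in fed p110aLKO livers (-0.88), beside 3.84% of all genes called in fed and 4.06% in fasted livers. Adipose markers, Adipoq not kept, reached 12.44 in 1 p110aLWT Fasted array against 8.52 to 10.32 in the fed and p110aLKO arrays. Of them Cfd was the 1 called between genotypes, with means of 8.67 and 9.24 in fed and fasted p110aLWT against 5.81 and 6.28 in p110aLKO (log2 fold changes -2.76 and -3.00), while Plin1 (-0.04 and -0.08), Lep (-0.13 and -0.18) and Retn (-0.13 and 0.001) did not pass. Their part in the results above was not tested.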

How the data were processed

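Liver RNA of 24 mice was labelled with Cy3 and hybridised to 1-colour Agilent arrays, 8 on each of 3 slides with 2 arrays of every group. The authors deposited scanner intensity values from Agilent Feature Extraction 10.10.1.1, as given in the submitters' processing notes, and a table of processed log2 values. Their methods filter the median signal, take log2, correct for washing bath, quantile-normalize and fit limma with array weights. The bath is not in the labels, so slide stood in for it. Here control spots and uneven or outlier spots were removed (61 to 133 of the latter an array, leaving 90 probe values missing), and a probe was kept where 5 or more arrays of any 1 group read it well above background (32197 of 56605). Log2 median signals were quantile-normalized (limma 3.58.1, R 4.3.3), fitted with group, slide and array weights, and p-values were adjusted over all kept probes. Probe positions are those of the files (mm9). The script was tested on simulated data.

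2 genes of the pathway list are not reported here. The members and lists were chosen with earlier results of these data known. The text names all 10 members, Pik3ca, the 3 most changed called pathway genes in each direction of each comparison, and the 3 genes most correlated with G6pc and with Pck1; the other enzymes and markers named make up short lists. Alternatives were Agilent's processed signal at the 75th percentile, normexp correction with offset 50, the deposited log2 table, other filters, no slide term, no array weights, a replicate block, only the groups compared, single slides, no minimum fold, other probes and leaving out arrays. Intensities carry no counts, so the number of arrays limits the precision.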

Additional observations from a re-analysis of the deposited data

Results flagged for a closer look

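The fasting response differed between the genotypes for Slc37a4, by -0.441 on the log2 scale (SE 0.132, limma adjusted p = 0.0437), and for Pik3ca, by -0.599 (SE 0.165, adjusted p = 0.0299). With each of the 24 arrays left out in turn the Slc37a4 difference passed 7 times (adjusted p from 0.0227 to 0.106) and that of Pik3ca 20 times (0.0114 to 0.0644), Pik3ca not without p110aLWT Fasted 5 or 6, p110aLKO Fasted 1 or p110aLWT Fed 4. Without p110aLKO Fasted 1 and 2 together, a setting chosen after seeing the data, the Pik3ca difference was -0.507 and did not pass (adjusted p = 0.0653).

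In 4 cases an array stood far from the others of its group, by the gap to the nearest array over the range of the group. They were p110aLWT Fasted 2 for Fbp1 (ratio 0.688, signal 17.95 against 17.68 for the nearest) and for Gcgr (ratio 0.7, 15.94 against 15.68). The others were p110aLKO Fed 2 for Pcx (ratio 0.697, 14.93 against 15.15) and p110aLKO Fasted 4 for Crtc2 (ratio 0.69, 11.46 against 11.16). Of 44 groups of 6 arrays examined, 4 passed, and chance alone gives about 1 in 20.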

How the results depend on the processing

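Of 2099 values of the 10 genes and Pik3ca under other settings, 2019 kept their side of the threshold, 121 of them turning sign where neither value passed the adjusted p, while 49 lost the call, 28 gained it and 3 turned sign where either value passed it. The 3 were the fasting change of Slc37a4 in p110aLWT within slide 1 (0.032) and with its second probe (0.047), and that of Aqp9 in p110aLKO with its second probe (-0.33). Within single slides, with 2 arrays a group, the number of genes called was 1 for fasting in p110aLWT (slide 1), 0 for fasting in p110aLKO (slides 1 and 3), and 0 between genotypes in either state on each slide. On slides 2 and 3 Pck1 and Crtc2 kept their calls for fasting in p110aLWT. On slide 2 Pck1 and Slc37a4 kept theirs for fasting in p110aLKO. Without a minimum fold the counts were 6 and 5 for fasting in p110aLWT and p110aLKO, 3 and 3 between genotypes in fed and fasted livers, and 1 for the interaction. Leaving out single arrays gave 2 to 3 genes for fasting in each genotype, 0 to 2 between genotypes in each state and 0 to 1 for the interaction. Without array weights the other pathway genes called were 4 for genotype in fed livers and 5 for the interaction, against 7 and 9. Replicate numbers did not pair the arrays: same-numbered arrays of different groups correlated at -0.18 to 0.28 in their deviations, and 2 of 24 correlated best with their own number. With the replicate block the counts were 3, 2, 1, 1 and 0 in the order above, G6pc in p110aLKO falling to 0.58, under the minimum fold. The cause of these shifts was not tested.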
